A study of Gallus gallus with 10 samples.

Results

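Kidneys of broiler chickens fed 1.2% Ca were compared with kidneys of chickens fed 0.8% Ca. The comparison holds the 6 libraries whose labels give these intakes, 3 at 1.2% Ca and 3 at 0.8% Ca, out of 10 kidney libraries in all, and each library came from 1 bird. The birds were Ross 308 broilers, a fast-growing meat line, killed at 21 days post-hatch and chosen because their body weight was close to the mean of their diet. Their feed differed in Ca, while non-phytate phosphorus was held constant and the enzyme phytase, which frees phosphorus from plant phytate, was added to every diet, also to that of the 4 birds at 1.0% Ca. The sex and the pen of a bird are not given, so p-values measure the spread between these birds. The birds at 1.2% Ca carry the numbers 1, 2 and 3 and were sequenced in lane 1, and those at 0.8% Ca carry the numbers 1, 3 and 4 and were sequenced in lane 2. Ca intake and lane therefore cannot be told apart within this comparison. The birds at 1.0% Ca were split over both lanes and were used to estimate the spread and to measure how lanes differ on a single diet.

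The kidney returns most filtered Ca to the blood along the tubule, under control of parathyroid hormone and vitamin D, and it sheds the excess when intake is high. In birds it also handles phosphate and uric acid, and its cortex is crossed by a dense bed of vessels. Kidney RNA therefore mixes tubule cells with endothelium, resident leukocytes and dividing cells. Genes of Ca and phosphate handling and of tubule transport could not be described here, because 0 of 26 and 0 of 14 genes on lists written for these functions could be tied to a counted gene by name. For the same reason 0 of 8 tubule markers and 0 of 2 podocyte markers were available to check the tissue label.

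RNA sequencing counts how many sequenced fragments come from each gene. The 6 libraries held between 6176553 and 7857813 counted fragments, so that a gene at 1 CPM (counts per 1e6 counted fragments) received 6.18 to 7.86 counts. After removal of genes with low counts, judged over all 10 libraries, 12187 of 17108 genes were tested. Levels are given as CPM after scaling of the libraries by TMM, a method that assumes most genes are equally expressed. The first principal component held 29.8% of the variance and separated single birds rather than diets. Bird 1 at 1.2% Ca was at 35.8 and bird 1 at 0.8% Ca at -48.5 on it, and the other 4 birds of the comparison lay between -0.216 and 14.4. For several results, though not for all, values without bird 1 at 0.8% Ca are therefore given as well.

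Few genes stood out from the spread between birds in this comparison of 1.2% and 0.8% Ca, which had 3 birds per diet. At the threshold of 0.05, edgeR called 0 of 12187 genes (0%) in its quasi-likelihood test, judged on the adjusted p, and the smallest adjusted p, shared by 8 genes, was 0.173. At an unadjusted p under 0.05 there were 366 genes higher (3.0%) and 709 genes lower (5.82%) at 1.2% Ca. The likelihood ratio test on the same model called 1 gene higher (0.00821%) and 18 genes lower (0.148%), with log2 fold changes of the lower ones from -0.48 to -1.31. The study also names this test, but ran it over all 3 Ca intakes at an adjusted p under 0.1. For pairs of diets the study used another program, so the counts are not like for like. DESeq2 called 42 genes, among them all 19 of the likelihood ratio calls, and limma-voom called 0, with 1118 at an unadjusted p under 0.05. Levels of the birds did not overlap between the diets for 810 higher genes (6.65%) and 1016 lower genes (8.34%). Of the 19 likelihood ratio calls, 5 had a name and 14 did not. Apart from GAPDH, names came from lists that the study chose on these same birds. Neither the directions of named genes nor the counts of list members are therefore independent evidence. The likelihood ratio calls depended on single birds: 88 genes were called without bird 3 at 1.2% Ca, 35 without bird 3 at 1.0% Ca, 2 without bird 1 at 0.8% Ca and 0 without bird 2 at 1.2% Ca. At an unadjusted p under 0.05, 209 genes were higher and 452 lower without bird 1 at 0.8% Ca, 552 were higher without bird 3 at 0.8% Ca, and 436 were lower without bird 2 at 1.2% Ca.

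KLF2 and ADAMTS8, which act in the vessel wall, were lower at 1.2% Ca by the likelihood ratio test. KLF2 (ENSGALG00000003939, chr28:4146806-4149435, minus strand, Galgal4) encodes a transcription factor that is induced by blood flow and keeps endothelium quiescent. Its level was 158.9, 152.1 and 203.3 CPM in the birds at 1.2% Ca, against 386.7, 350.4 and 292.5 CPM in the birds at 0.8% Ca. The diets did not overlap, and the 4 birds at 1.0% Ca spread from 189.7 to 357.8 CPM, across most of the range of both. The log2 fold change, with its standard error (SE), was -1.001 (SE 0.216), past the likelihood ratio threshold (adjusted p = 0.0163, edgeR) but not that of the quasi-likelihood test (adjusted p = 0.359). In fits without 1 bird of the comparison the fold change lay between -1.14 and -0.91. The likelihood ratio call was lost without bird 1 or 3 at 0.8% Ca (adjusted p = 0.194 and 0.0851) and without bird 1 or 2 at 1.2% Ca (adjusted p = 0.2 and 0.248).

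ADAMTS8 (ENSGALG00000001370, chr24:1655304-1670221) encodes a secreted metalloprotease with thrombospondin motifs that restrains vessel growth. It was at 25.8, 19.9 and 20.96 CPM in the birds at 1.2% Ca, against 43.4, 39.8 and 37.8 CPM in those at 0.8% Ca. Birds within a diet lay close together, with a mean of 22.2 ± 3.14 CPM at 1.2% Ca and of 40.4 ± 2.85 CPM at 0.8% Ca (SD, n = 3 each), and the birds at 1.0% Ca averaged 27.3 ± 4.52 CPM (SD, n = 4). The log2 fold change was -0.86 (SE 0.156, adjusted p = 0.00456 by edgeR in the likelihood ratio test and 0.229 in the quasi-likelihood test). The likelihood ratio call was lost without bird 1 at 0.8% Ca (adjusted p = 0.107) and without bird 2 at 1.2% Ca (adjusted p = 0.144).

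Other endothelial genes were less clear. APLNR, the receptor for the peptide apelin that relaxes vessels, was at 22.4, 20.3 and 51.6 CPM in the birds at 1.2% Ca, against 68.3, 56.1 and 48.8 CPM in those at 0.8% Ca, so that bird 3 at 1.2% Ca reached the level of the other diet. APOLD1, an early response gene of endothelial cells, was at 21.7, 15.04 and 49.6 CPM at 1.2% Ca, against 132.1, 64.6 and 32.6 CPM at 0.8% Ca, again with bird 3 at 1.2% Ca above a bird of the other diet. SLCO2A1, a prostaglandin transporter found in endothelium, had a log2 fold change of -0.61 (SE 0.219). Of 7 tested genes on a list of endothelium and catecholamine or apelin receptors, 5 had an unadjusted p under 0.05 and were lower, against 5.82% of all genes, 0 were higher at that p, against 3.0% of all genes, and the median log2 fold change was -0.86, against 0.01 over all genes tested. The other members were WNK4, a kinase that regulates salt transport in the tubule (log2 fold change -0.60, SE 0.601), and PRCP, a protease that cleaves angiotensin (0.00, SE 0.278). Only 2 members were lower at that p without bird 1 at 0.8% Ca, and likewise without bird 1 or bird 2 at 1.2% Ca. The study had picked 4 of the 7 for these diets and ADAMTS8 for its slope over Ca intake. All 5 lower members were thus chosen on these same birds, so their count is not independent evidence. The summed level of the endothelial markers KLF2, APOLD1 and APLNR was 203, 187 and 304 CPM at 1.2% Ca, against 587, 471 and 374 CPM at 0.8% Ca. Each of these markers had been picked by the study for these diets, and KLF2 made up most of the sum in every bird. The sum is therefore not independent evidence. In a tissue sample, fewer endothelial cells and less RNA per cell cannot be told apart.

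**Figure D1:**
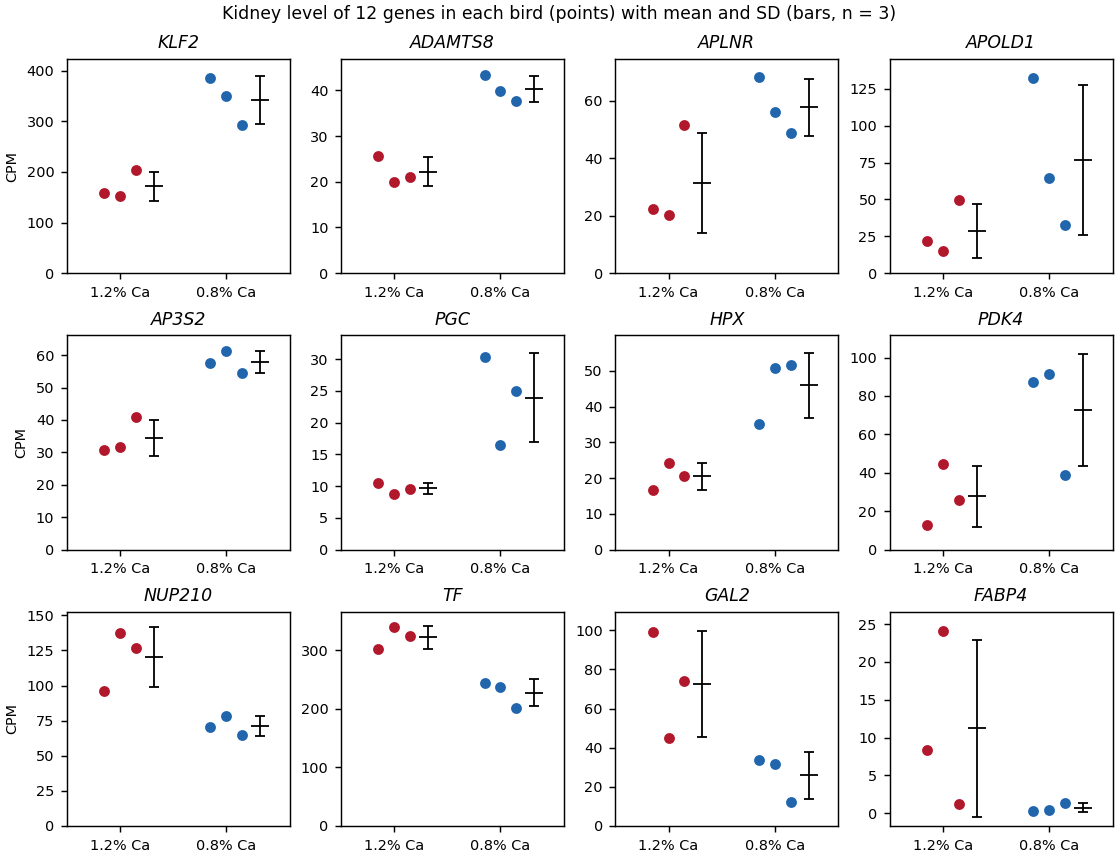
Levels in CPM (vertical axes) of 12 genes in each of the 3 birds at 1.2% Ca (red) and the 3 birds at 0.8% Ca (blue), with the mean and SD beside the points. KLF2, ADAMTS8, AP3S2, PGC and HPX do not overlap between the diets, while a bird at 1.2% Ca reaches the other diet for APLNR, APOLD1, PDK4 and FABP4.

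AP3S2 (ENSGALG00000008291, chr10:19497720-19501385, minus strand) had the smallest quasi-likelihood p of the genes with a name. It encodes the small subunit of AP-3, an adaptor that sorts membrane proteins to lysosomes. Its level was 30.6, 31.8 and 40.8 CPM in the birds at 1.2% Ca, against 57.7, 61.3 and 54.6 CPM in the birds at 0.8% Ca. The birds at 1.0% Ca were at 40.2 to 46.8 CPM, and the lowest of them was just below bird 3 at 1.2% Ca. The log2 fold change was -0.75 (SE 0.125, adjusted p = 0.00342 from the likelihood ratio test and 0.173 from the quasi-likelihood test of edgeR). This call was lost without bird 1 at 0.8% Ca (adjusted p = 0.0617), bird 1 at 1.2% Ca (0.0723) or bird 2 at 1.2% Ca (0.0976).

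NUP210, a membrane protein of the nuclear pore, stood on the other side, at 96.3, 137.2 and 126.8 CPM in the birds at 1.2% Ca, against 70.4, 78.5 and 64.8 CPM in those at 0.8% Ca. The diets did not overlap, and the log2 fold change was 0.75 (SE 0.176, adjusted p = 0.0569 from the likelihood ratio test of edgeR), just outside the threshold. LRRC8A, a subunit of the volume-regulated anion channel, had a log2 fold change of -2.84 (SE 1.14) that came from a single kidney: bird 4 at 0.8% Ca had 38.6 CPM and the other 5 birds had 0.895 to 2.41 CPM. Without that bird the value was 0.78. On the list of membrane trafficking and nuclear pore, 7 genes were tested. At an unadjusted p under 0.05, NUP210 and the import factor KPNA2 were higher, and AP3S2 and LRRC8A were lower. Over all genes, 3.0% were higher and 5.82% lower at that p. The list's median log2 fold change was -0.46. NUP98, another nuclear pore protein, was at -0.41 and SH3GLB2, a protein that bends membranes, at -1.15 on the log2 scale, both with overlapping birds.

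PGC (ENSGALG00000028489, chr26:4976148-4979037, minus strand) encodes progastricsin, the precursor of an acid protease best known from the stomach. It was at 10.5, 8.80 and 9.59 CPM in the birds at 1.2% Ca, against 30.4, 16.4 and 25.1 CPM in those at 0.8% Ca. The birds at 1.2% Ca lay close together, and those at 1.0% Ca, at 8.01 to 10.9 CPM, were as low. The log2 fold change was -1.31 (SE 0.227, adjusted p = 0.00342 from the likelihood ratio test and 0.182 from the quasi-likelihood test of edgeR). The likelihood ratio call was lost without bird 1 at 0.8% Ca (adjusted p = 0.0617) and without bird 2 at 1.2% Ca (0.0865). Among 5 genes on a list of pepsin and dipeptidyl peptidase types, 1 was lower at an unadjusted p under 0.05, PGC (5.82% of all genes). The only gene higher was DPP6 (3.0% of all genes), which resembles these peptidases but serves potassium channels. DPP6 was at 1.21, 39.2 and 0.639 CPM at 1.2% Ca, against 0.976, 2.69 and 1.96 CPM at 0.8% Ca, so that bird 2 at 1.2% Ca carried the difference. Without it the log2 fold change was -1.03, and the 4 birds at 1.0% Ca were at 39.8 to 63.4 CPM, above both other diets on average. The other members, NAALAD2 (-0.63), CAPN3 (0.29) and PRCP, had overlapping birds, and the list's median was 0.00.

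FABP4 (ENSGALG00000015767, chr2:121225723-121228944, minus strand) was the gene called higher by the likelihood ratio test over all 10 libraries. FABP4 passed the low-count filter only with the birds at 1.0% Ca included, so it was not tested in the 6 libraries alone. It encodes the fatty acid carrier of adipocytes and of some capillary endothelium. Its level was 8.36, 24.1 and 1.28 CPM in the birds at 1.2% Ca, against 0.325, 0.448 and 1.40 CPM in the birds at 0.8% Ca. At 6.18 to 7.86 counts per CPM, the levels at 0.8% Ca rest on few fragments, so the size of the fold change is uncertain. Birds 1 and 2 at 1.2% Ca stood apart from the rest, and bird 3 was below bird 4 at 0.8% Ca. The log2 fold change was 3.89 (SE 0.966, adjusted p = 0.0298 from the likelihood ratio test and 0.423 from the quasi-likelihood test of edgeR). The call was lost without bird 2 at 1.2% Ca (adjusted p = 0.421), bird 1 at 1.2% Ca (0.0626), bird 1 at 0.8% Ca (0.316), bird 3 at 0.8% Ca (0.191) or bird 2 at 1.0% Ca (0.0538). In fits without 1 bird the fold change lay between 2.67 and 4.79.

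Genes of fuel use did not share a direction. PDK4, a kinase that closes the entry of pyruvate into the citric acid cycle and is induced by fasting, was at 12.5, 44.6 and 25.8 CPM at 1.2% Ca, against 87.2, 91.5 and 38.9 CPM at 0.8% Ca, with bird 2 at 1.2% Ca above bird 4 at 0.8% Ca. LPL, the lipase that frees fatty acids from lipoproteins and the other adipocyte marker that could be measured, was at 43.2, 53.8 and 38.9 CPM at 1.2% Ca, against 107.8, 72.7 and 49.0 CPM at 0.8% Ca. FABP4 and LPL thus pointed in opposite directions. Of 8 genes on a list of lipid and fuel metabolism, 1 was higher and 2 were lower at an unadjusted p under 0.05. These shares were 3.0% and 5.82% over all genes. The list's median log2 fold change was 0.26. Without bird 3 at 1.2% Ca this median was -0.02. FABP7 (1.02), PLPP4 (0.91) and Enpp2 (0.23), which handle fatty acids or lipid phosphates, were among the rest, each with overlapping birds.

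Secreted carriers of iron and heme differed in opposite directions. HPX encodes hemopexin, the plasma protein that binds free heme. It was at 16.7, 24.1 and 20.6 CPM in the birds at 1.2% Ca, against 35.3, 50.9 and 51.6 CPM in those at 0.8% Ca, a log2 fold change of -1.17 (SE 0.289, adjusted p = 0.057 from the likelihood ratio test of edgeR). TF encodes transferrin, the iron carrier of plasma. It was at 301.6, 339.7 and 324.7 CPM in the birds at 1.2% Ca, against 244.9, 237.8 and 200.8 CPM in those at 0.8% Ca, a log2 fold change of 0.50 (SE 0.134, adjusted p = 0.187 from the same test). Neither gene overlapped between the diets, and neither passed an adjusted threshold in edgeR. The order over 3 diets was not steady for TF, since the birds at 1.0% Ca averaged 165.8 ± 26.5 CPM (SD, n = 4), below both other diets. Of the 6 genes on the list of secreted carriers and acute phase, these were the only members at an unadjusted p under 0.05. At that p 3.0% of all genes were higher and 5.82% lower. The list's median was -0.15. This median was 0.23 without bird 3 at 0.8% Ca, 0.21 without bird 1 at 1.2% Ca and -0.48 without bird 3 at 1.2% Ca, where 3 members were lower at that p. PTGDS (-0.91) and MUC13 (0.59) had overlapping birds, as did FCGBP (-0.21) and Ex-FABP (-0.08).

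Of 6 granule markers of heterophils, the avian counterpart of neutrophils, only 2 could be measured, the antimicrobial peptides GAL1 and GAL2. Both had higher levels in the birds at 1.2% Ca. GAL1 and GAL2, which carry the symbols of the defensins gallinacin 1 and gallinacin 2, are neighbours on chromosome 3. GAL2 was at 99.3, 45.1 and 73.9 CPM at 1.2% Ca, against 33.8, 31.8 and 12.04 CPM at 0.8% Ca, a log2 fold change of 1.496 (SE 0.44, unadjusted p = 0.00653 from the quasi-likelihood test of edgeR). GAL1 was at 103.2, 53.1 and 77.1 CPM at 1.2% Ca, against 37.9, 41.3 and 15.3 CPM at 0.8% Ca. LECT2, a secreted chemotactic factor for these cells, was at 463.7, 177.7 and 277.4 CPM at 1.2% Ca, against 137.6, 136.4 and 61.6 CPM at 0.8% Ca. The 3 genes ranked the birds in the same way at 1.2% Ca, with bird 1 highest and bird 2 lowest, and in each the diets did not overlap. At 1.0% Ca all 3 genes were also higher in lane 1, by 0.68 for LECT2, 0.59 for GAL2 and 0.66 for GAL1 on the log2 scale. The unadjusted p was 0.202, 0.294 and 0.238 in that order (quasi-likelihood test of edgeR). In lane 1, bird 1 was at 190.1, 49.6 and 49.6 CPM and bird 2 at 103.2, 22.3 and 19.95 CPM. The lane 2 birds were at 101.6 and 81.8 CPM for LECT2, 26.75 and 20.7 for GAL2, and 23.4 and 20.3 for GAL1. The lane difference thus came mostly from bird 1. With lane as a covariate, estimated through the birds at 1.0% Ca alone, the log2 fold changes were 0.78 for LECT2, 0.90 for GAL2 and 0.65 for GAL1. Of the 17 members of their list, 0 had an unadjusted p under 0.05 in that fit. Closely related defensin genes can share reads, so the split between GAL1 and GAL2 is uncertain.

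Markers of macrophages and other leukocytes had no such difference. The sum of 8 of them (SPI1, LY86, CD180, TLR7, Nox2, MYO1F, IL2RG and DCSTAMP) was 307, 791 and 1060 CPM at 1.2% Ca, against 801, 506 and 532 CPM at 0.8% Ca. Bird 1 at 1.2% Ca, highest in the heterophil peptides, was lowest in this sum. Of 17 genes on the list of heterophil peptides and leukocyte genes, 4 were higher and 0 lower at an unadjusted p under 0.05. Among all genes 3.0% were higher and 5.82% lower. The higher members were LECT2, GAL2, GAL1 and the complement protease C1S (log2 fold change 0.81), all 4 picked by the study for these diets. The list's median of 0.38 was -0.03 without bird 3 at 1.2% Ca. The chemokine CCL20 was at 0.46, the cytokine receptor chain IL2RG at -0.31 and the oxidase subunit Nox2 at 0.32 on the log2 scale, all with overlapping birds.

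Genes of mitosis and DNA replication had higher mean levels at 1.2% Ca in all 32 tested members of their list. The median log2 fold change was 0.91, and 7 members were higher at an unadjusted p under 0.05 (3.0% of all genes were), while 12 were higher without overlap between the diets (6.65% of all genes were). The study had picked all 32 for these diets, so that their shared direction is not independent evidence. CDCA8, a subunit of the complex that corrects chromosome attachment, was at 56.3, 103.2 and 86.5 CPM at 1.2% Ca, against 27.5, 48.2 and 47.6 CPM at 0.8% Ca. NCAPG, a condensin subunit that compacts chromosomes, was at 80.9, 60.6 and 71.7 CPM at 1.2% Ca, against 22.1, 47.4 and 40.9 CPM at 0.8% Ca. In both genes bird 1 at 0.8% Ca was the lowest of the 6.

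The pattern followed single birds. Bird 1 at 0.8% Ca was the lowest of all 10 birds in 32 of 32 members, and bird 1 at 1.2% Ca was the highest in 31. MKI67, which encodes the proliferation marker Ki-67, was at 342.3, 249.3 and 186.5 CPM at 1.2% Ca, against 44.7, 200.8 and 177.3 CPM at 0.8% Ca, so that bird 3 at 1.2% Ca lay below bird 3 at 0.8% Ca. NCAPG2 (log2 fold change 1.34), NUF2 (1.20), KIF15 (0.94), KPNA2 (0.93) and BUB1 (0.87), which serve chromosome compaction, the kinetochore, the spindle, nuclear import and the spindle checkpoint, were the other members at an unadjusted p under 0.05. Taken as the median over the 32 members of the log2 level relative to all 10 birds, the birds at 1.2% Ca stood at 0.94, 0.41 and 0.07, and those at 0.8% Ca at -2, 0.12 and -0.08. Without bird 1 at 0.8% Ca the median log2 fold change was 0.49, and it was 0.65 without bird 1 at 1.2% Ca. Members at an unadjusted p under 0.05 numbered 3 without bird 1 at 0.8% Ca and 2 without bird 1 at 1.2% Ca, but 23 without bird 3 at 0.8% Ca and 12 without bird 3 at 1.2% Ca, and 4 without bird 2 at 1.2% Ca.

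**Figure D2:**
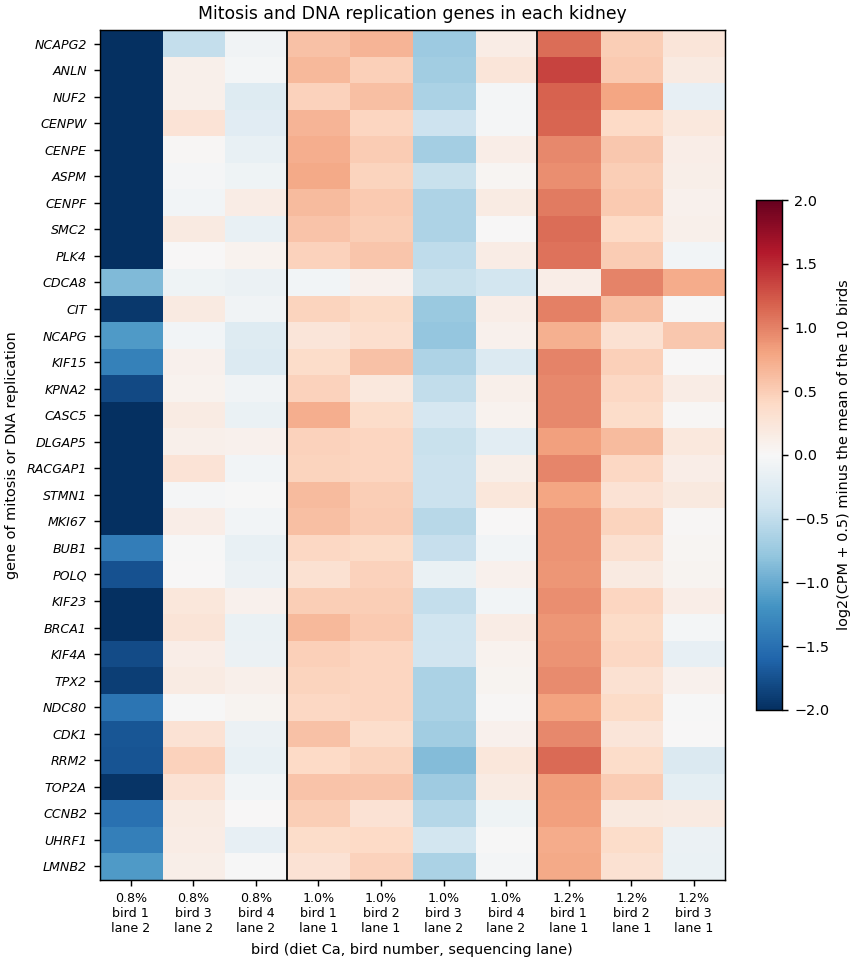
Heat map of the 32 mitosis and DNA replication genes (rows) in the 10 birds (columns, grouped by dietary Ca, with bird number and lane), as log2 of CPM plus 0.5 minus the mean of the 10 birds, with colours capped at -2 and 2. Bird 1 at 0.8% Ca is the lowest in all 32 rows and bird 1 at 1.2% Ca the highest in 31, and at 1.0% Ca the birds of lane 1 lie above those of lane 2.

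The birds at 1.0% Ca allow lanes to be compared on a single diet, with birds that are in neither group. Between lane 1 and lane 2 the quasi-likelihood test of edgeR found 355 genes higher (2.91%) and 548 genes lower (4.50%) at an unadjusted p under 0.05, a total of 903 that became 519, 531, 482 and 1470 without birds 1, 2, 3 and 4 in turn. Over the 12187 genes this lane difference was nearly unrelated to the fold change between 1.2% and 0.8% Ca (Pearson r = -0.00812, Spearman rho = 0.0451, across genes, which are not independent replicates). The mitosis list stood out from that, with all 32 members higher in lane 1 and a median log2 difference of 0.70. MKI67 was at 278.1 and 261.4 CPM in lane 1, against 125.2 and 184.7 CPM in lane 2, at the same Ca intake. The median of the list lay between 0.41 and 1.03 when any of these 4 birds was left out. With lane as a covariate, estimated through these birds alone, the median log2 fold change of the list between 1.2% and 0.8% Ca was 0.23, and 0 members had an unadjusted p under 0.05. Whether lane, diet or differences between single birds moved these genes was not tested.

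Interferon-induced genes had the reverse pattern. Of 13 tested genes on their list, 11 had higher means at 1.2% Ca, and the median log2 fold change was 0.64. At an unadjusted p under 0.05, 2 were higher and 1 was lower, against 3.0% and 5.82% of all genes. CMPK2, an interferon-induced kinase of nucleotides in mitochondria, was at 285.3, 388.2 and 106.2 CPM at 1.2% Ca, against 77.4, 80.3 and 143.0 CPM at 0.8% Ca, so that bird 3 at 1.2% Ca was below bird 4 at 0.8% Ca. ZC3HAV1, an antiviral protein that binds foreign RNA, was at 145.8, 209.2 and 101.2 CPM at 1.2% Ca, against 90.4, 73.4 and 98.7 CPM at 0.8% Ca, without overlap. TAP2, the peptide transporter of antigen presentation, pointed the other way, at 60.4, 89.4 and 73.1 CPM at 1.2% Ca, against 156.9, 92.5 and 122.7 CPM at 0.8% Ca. TAP2 was also lower in lane 1 at 1.0% Ca, by a log2 difference of -0.66, and with lane as a covariate its log2 fold change was -0.08. TLR3 (0.64), TRANK1 (0.56) and EPSTI1 (0.89) followed by p. The study had picked 8 of the 13 for these diets.

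At 1.0% Ca the same genes were higher in lane 2. CMPK2 was at 101.2 and 95.7 CPM in lane 1, against 265.6 and 388.7 CPM in lane 2. Members whose lane difference had the sign of the diet difference numbered 2 of 13, and the median lane difference was -1.15. The birds with high interferon genes were therefore birds 1 and 2 at 1.2% Ca and birds 3 and 4 at 1.0% Ca, which come from different lanes. With lane as a covariate the median log2 fold change was 1.74, with 10 members at an unadjusted p under 0.05. The lane term is estimated only from the birds at 1.0% Ca, so this larger value follows from their lane difference. It is not separate evidence on diet. Of all 12187 genes, 379 were higher and 570 lower at that p with the covariate. Without the covariate the median was 0.30 when bird 2 at 1.2% Ca was left out and 0.92 when bird 3 at 1.2% Ca was. With that bird 3 left out, 6 members were higher at an unadjusted p under 0.05, and with bird 2 at 1.2% Ca or bird 3 at 0.8% Ca left out 0 were.

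**Figure D3:**
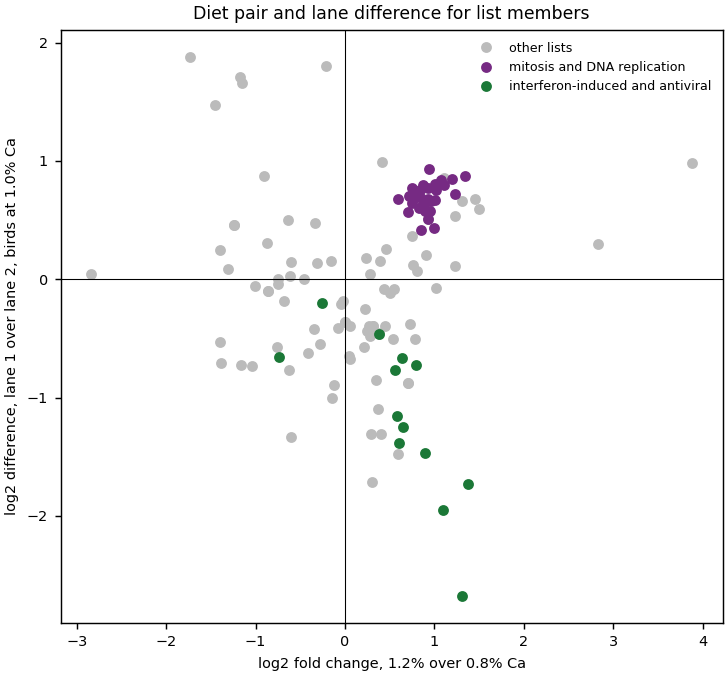
Log2 fold change of 1.2% over 0.8% Ca (horizontal axis) and log2 difference of lane 1 over lane 2 in the birds at 1.0% Ca (vertical axis) for the members of the gene lists, 1 point per gene. All 32 mitosis genes lie in the upper right and 11 of 13 interferon-induced genes lie in the lower right.

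For the named genes called by the likelihood ratio test the lane difference at 1.0% Ca was small where the gene was lower, and larger for FABP4. The 14 calls without a name are not covered by these values. The lane difference was -0.05 for KLF2, -0.10 for ADAMTS8, -0.04 for AP3S2 and 0.09 for PGC on the log2 scale. Its unadjusted p was 0.621 to 0.848 for these genes and 0.367 for FABP4 (quasi-likelihood test of edgeR). These estimates rest on birds 1 and 2 against birds 3 and 4 and are uncertain. KLF2 was at 237 and 290.4 CPM in lane 1, against 189.7 and 357.8 CPM in lane 2. With lane as a covariate the fold changes were -0.95 for KLF2, -0.76 for ADAMTS8, -0.71 for AP3S2 and -1.40 for PGC, near those without it. This nearness follows from the small lane differences, because the lane term is estimated only from the birds at 1.0% Ca. The nearness is thus not a second check on lane. With the covariate, 0 of KLF2, ADAMTS8, AP3S2 and PGC passed the likelihood ratio test of edgeR (adjusted p of 0.195 to 0.439). FABP4 had a lane difference of 0.98 and a log2 fold change of 2.91 with lane as a covariate, also without passing (adjusted p = 0.659 from the likelihood ratio test of edgeR). For NUP210 the covariate gave 0.38 in place of 0.75, and for HPX -0.44 in place of -1.17. Their lane differences were 0.37 and -0.72 (unadjusted p = 0.0819 and 0.037, quasi-likelihood test of edgeR). At 1.0% Ca HPX was at 16.6 and 15.9 CPM in lane 1, against 34.6 and 19.2 CPM in lane 2. Its lane difference thus came mostly from bird 3.

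For the other lists, members are counted at an unadjusted p under 0.05, at which 3.0% of all genes were higher and 5.82% lower. In the extracellular matrix list, 15 genes were tested, 3 were higher and 1, ADAMTS8, was lower. The median log2 fold change was 0.45, and 0.29 without bird 1 at 0.8% Ca. With lane as a covariate, estimated through the birds at 1.0% Ca alone, the median was 0.77, with 4 members at an unadjusted p under 0.05. All 3 higher genes had been picked by the study for these diets, and ADAMTS8 for its slope over Ca intake. MFAP5, a protein of elastic microfibrils, was at 575.7, 441.7 and 285.8 CPM at 1.2% Ca, against 181.8, 255.0 and 317.8 CPM at 0.8% Ca, with bird 3 at 1.2% Ca below bird 4 at 0.8% Ca. TGM3, a cross-linking enzyme of epithelia (log2 fold change 1.23), and FNDC1, a protein with fibronectin domains (0.77), were the others, and VCAN, a proteoglycan (0.45), and SPON2, a secreted matrix protein (1.23), did not pass. The list of neuronal and synaptic genes had 9 tested members, 1 higher and 3 lower, and a median of -1.04. Of the 9, 6 had been picked by the study for these diets, the higher and the 3 lower members among them. Their counts are thus not independent evidence. GAD2, which makes the transmitter GABA, was at 38.6, 14.3 and 28 CPM at 1.2% Ca, against 13.3, 12.1 and 12.2 CPM at 0.8% Ca. NPTX2, a secreted pentraxin, was at 8.09, 6.24 and 7.03 CPM at 1.2% Ca, against 26.2, 11.6 and 18.1 CPM at 0.8% Ca, and neither gene overlapped between the diets. ATP8A2 (-1.45) and RGS9BP (-1.04) were the other lower members, and ST8SIA6 (-1.74) and DRP2 (-1.18) did not pass. With lane as a covariate the log2 fold changes were 0.25 for GAD2, -0.67 for NPTX2, -0.31 for RGS9BP and -2.92 for ATP8A2, and the median of the neuronal list was -0.31. Without bird 4 at 0.8% Ca, or without bird 2 or 3 at 1.2% Ca, 1 of its members was lower at an unadjusted p under 0.05.

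Early response and redox genes gave no member at an unadjusted p under 0.05. The 8 immediate early and stress genes had a median of -0.44, which was 0.00 without bird 1 at 0.8% Ca. MCL1, an inhibitor of cell death, had a log2 fold change of -0.75 and SIK1, a salt-inducible kinase, of -0.60. NFKBIZ (0.43), CHAC1 (-1.24), OTUD1 (-0.62) and ATF3 (0.55) were the next members by p. The 6 glutathione and redox genes had a median of 0.15 that turned to -0.41 without bird 3 at 1.2% Ca and was 0.48 without bird 1 at 0.8% Ca. Among them MGST2 was at -0.68, MGST1 at 0.27, GSTA3 at 0.25 and XDH, the enzyme that makes uric acid, at 0.05. GAPDH, a glycolytic enzyme gene that the study used as its PCR reference, was at 649.6, 560.3 and 709.9 CPM at 1.2% Ca, against 619.5, 644.8 and 602.9 CPM at 0.8% Ca, a log2 fold change of 0.04 (SE 0.107).

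Some named genes with small p belonged to no list. FAM43A was at 28.1, 24.8 and 29.5 CPM at 1.2% Ca, against 46.0, 43.4 and 38.1 CPM at 0.8% Ca, a log2 fold change of -0.63 (SE 0.129, adjusted p = 0.0521 from the likelihood ratio test of edgeR). PPDPF had a log2 fold change of -0.71 (SE 0.184), also without overlap. TSPO2, a membrane protein of red cell precursors, was at 41.3, 16.2 and 13.4 CPM at 1.2% Ca, against 13.5, 6.12 and 7.98 CPM at 0.8% Ca, with overlapping birds. TMEM8A was at 6.07, 39.5 and 7.16 CPM at 1.2% Ca, against 20.3, 49.98 and 10.4 CPM at 0.8% Ca, so that birds within a diet differed more than the diets did. Of genes without a name, the smallest p belonged to ENSGALG00000002237 (chromosome 11) and ENSGALG00000027902 (chromosome 18), with log2 fold changes of -0.73 and -0.67 and likelihood ratio adjusted p of 0.00342 each in edgeR, and on the higher side to ENSGALG00000002663 (0.61) and ENSGALG00000016448 (0.93). Among markers of the lower urinary tract, PSCA was at 591.3, 279.1 and 461.5 CPM at 1.2% Ca, against 1069, 675.8 and 648.5 CPM at 0.8% Ca, and UPK1B, a uroplakin of the urinary lining, was at 27.3, 16.3 and 8.44 CPM at 1.2% Ca, against 17.2, 13.7 and 15.95 CPM at 0.8% Ca. TGM3, also on this marker list, differed in the opposite direction from PSCA, with log2 fold changes of 1.23 for TGM3 and -0.85 for PSCA (unadjusted p = 0.0126 and 0.0373 from the quasi-likelihood test of edgeR), and 2 of 4 measured markers had higher means at 1.2% Ca. The sum of the 4 markers, mostly PSCA, was 703, 470 and 529 CPM at 1.2% Ca, against 1130, 879 and 748 CPM at 0.8% Ca. PSCA and TGM3 had been picked by the study for these diets, so this sum is not independent evidence. The part of a changing share of such cells in the results was not tested.

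The genes that differed were unevenly spread over the chromosomes. The chicken genome has a few large macrochromosomes and many small, gene-dense microchromosomes. On macrochromosomes 1 to 5, 3.88% of 5235 tested genes were higher and 3.17% lower at an unadjusted p under 0.05. On microchromosomes 11 to 28, 1.79% of 3908 genes were higher and 8.8% lower. Chromosome 25 had 0 higher and 19 lower of 104 genes, chromosome 27 had 0 higher and 24 lower of 178, and of 519 genes on unplaced scaffolds 1.16% were higher and 19.1% lower. The Z chromosome, with 4.32% higher and 3.11% lower, resembled the macrochromosomes. The median log2 fold change was 0.06 on macrochromosomes and -0.06 on microchromosomes. Microchromosomes held 3908 of the 12187 tested genes and 11 of the 19 likelihood ratio calls, KLF2, ADAMTS8 and PGC among them.

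**Figure D4:**
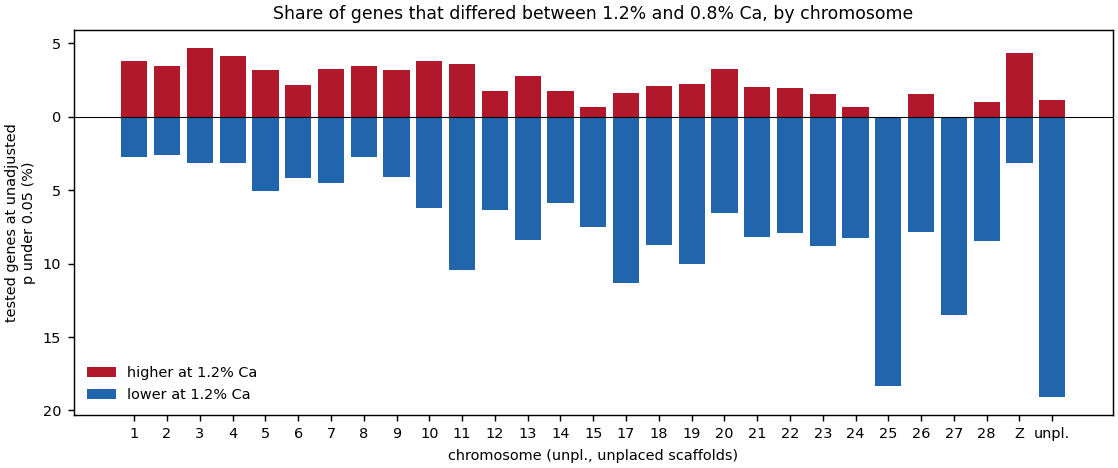
Percent of tested genes at an unadjusted p under 0.05 (vertical axis) that were higher (red, upward) or lower (blue, downward) at 1.2% than at 0.8% Ca, by chromosome. The share of lower genes is 2.71% on chromosome 1 and 18.3% on chromosome 25, and 19.1% on unplaced scaffolds.

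The same shift was visible bird by bird. Relative to the mean of all 10 birds, the median log2 level of microchromosome genes minus that of macrochromosome genes was -0.08, -0.05 and -0.0025 in the birds at 1.2% Ca, against 0.12, 0.05 and 0.04 in the birds at 0.8% Ca. The birds of the diets did not overlap, although bird 3 at 1.2% Ca was close to 0, and 3 against 3 birds cannot give an exact two-sided permutation p below 0.1. The birds at 1.0% Ca had -0.03 and -0.02 in lane 1 and 0.0012 and -0.04 in lane 2, so that the lanes overlapped on that diet. Leaving out any bird of the comparison left the share of lower genes on microchromosomes between 5.56% and 11.2%, and on macrochromosomes between 1.66% and 4.08%, where the share of higher genes lay between 2.17% and 5.64%. On unplaced scaffolds the share of lower genes was 10.7% without bird 1 at 0.8% Ca, 12% without bird 1 at 1.2% Ca, 11.7% without bird 2 at 1.2% Ca and 23.3% without bird 3 at 1.2% Ca. Bird 1 at 0.8% Ca had the largest deviation here as well.

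**Figure D5:**
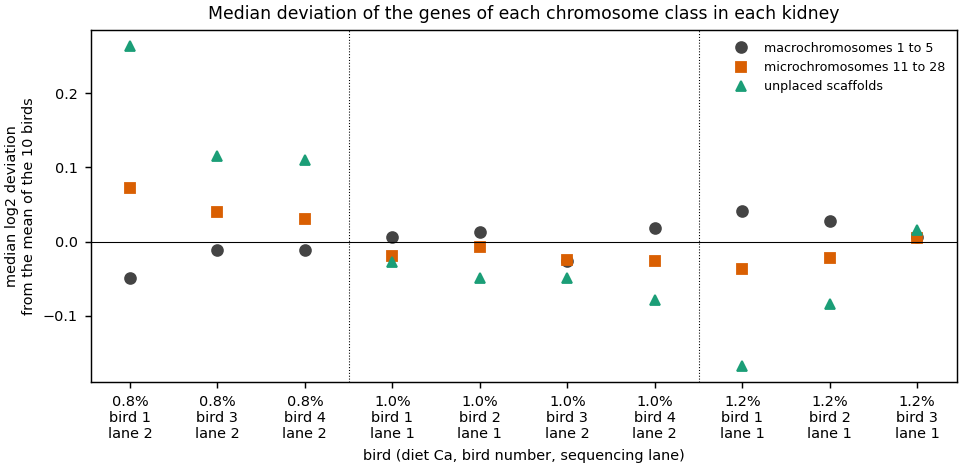
Median log2 deviation from the mean of the 10 birds (vertical axis) of genes on macrochromosomes, microchromosomes and unplaced scaffolds in each bird (horizontal axis, by dietary Ca, with lane). Microchromosomes lie above macrochromosomes in the 3 birds at 0.8% Ca and below them in the 3 birds at 1.2% Ca.

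Genes with a short exon length, taken over all exons of the gene together, were also more often lower. Genes were split into 5 equal classes by this exon length. In the shortest class, from 52 to 1218 bases, 8.68% were lower and 1.97% higher at an unadjusted p under 0.05. In the longest class 3.24% were lower and 3.36% higher. The median exon length was 1785 bases for the lower genes, 2516 bases for the higher genes and 2287 bases for all. The trend held within both chromosome classes: on macrochromosomes the share of lower genes was 5.84% in the shortest class and 0.999% in the longest, and on microchromosomes 10.1% and 7.03%. The lower genes also had lower levels, with a median log2 CPM of 4.70, against 5.70 for the higher genes and 5.05 for all. Across genes the fold change and the log2 exon length had a Spearman rho of 0.136, while the lane difference at 1.0% Ca and the length had -0.0255. With the libraries rescaled separately for each chromosome class, an analysis added after seeing the data, the log2 fold change of KLF2 was -0.94, of ADAMTS8 -0.79 and of PGC -1.24, each past the likelihood ratio threshold (adjusted p = 0.0306, 0.0225 and 0.00649, edgeR). What moved these classes was not tested, and diet and lane cannot be told apart here either.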

How the data were processed

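Kidney RNA was sequenced as paired reads, 1 library per bird. The authors trimmed the reads, mapped the pairs with HISAT2 2.0.4 against Galgal4, and assigned each fragment to exons of Ensembl genes by featureCounts 1.5.0-p3. The deposited counts are whole and not normalized, beside the deposited exon length of each gene (in bases, another unit than counts). No strand option was set, so overlapping and antisense genes cannot be told apart, and the labels and the methods name different kits. Lanes come from the column names and the study's read table, although its methods speak of a single lane. CPM are counts per 1e6 counted fragments after TMM scaling.

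The analysis used edgeR 4.0.16 under R 4.3.3: filterByExpr, TMM, and the quasi-likelihood and likelihood ratio tests of 1.2% minus 0.8% Ca over all 10 libraries with diet as a group, two-sided, with Benjamini-Hochberg adjustment over 12187 genes. Alternatives were DESeq2 1.42.0, limma-voom (limma 3.58.1), other scalings and filters, robust estimation, a lane term, a block on the replicate number, the 6 libraries alone, genes on Z and W left out, an adjusted p under 0.1, and each library left out. The model was tested on simulated data. Libraries of a diet differed by more than sampling noise. Counted fragments of 6176553 to 7857813 set the precision.

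Of 17108 identifiers, 155 had a name, 11 by identifier and 144 by locus, from the study's tables, and 0 were in RefSeq's gene table. Of 14 lists, 2 had no identified member (0 genes). The genes named are those past the likelihood ratio threshold, the 10 with the smallest p per direction, up to 6 members per list, the study's slope genes, DPP6, GAPDH and at most 4 without a name. MKI67, PSCA and UPK1B were added after seeing their values. Members and lists were chosen with earlier results of these data known. Figures were drawn with Matplotlib 3.10.9.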

Additional observations from a re-analysis of the deposited data

Results flagged for a closer look

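Within the 4 birds at 1.0% Ca, where the 78 named genes were checked for a bird far from the others, 3 genes had a single bird set apart. The gap to the next bird made up 0.882 of the group's range for GAL1 (bird 1 highest, at 49.6 CPM against 19.95 to 23.4 CPM in the others), 0.848 for OTUD1 (bird 3 highest, at 262.4 CPM) and 0.842 for ENSGALG00000016448. Chance alone sets a bird apart in about 1 of 20 such groups, so 3 of 78 is not above that rate. The groups of 3 birds at 1.2% and 0.8% Ca were not checked in this way.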

How the results depend on the processing

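Of the 78 named genes, 62 kept their direction under each of up to 23 alternatives, and 0 passed the quasi-likelihood threshold under any edgeR alternative, while 10 passed the threshold of DESeq2. The quasi-likelihood count stayed at 0 in every edgeR alternative, and limma-voom also gave 0, but DESeq2 called 42 genes. The likelihood ratio test called 19 genes, 33 with upper-quartile factors, 43 with lane as a covariate (1 shared with the 19) and 43 at an adjusted p under 0.1. With the 6 libraries alone this test called 26 genes (12 shared with the 19), and FABP4 was not tested there. Without 1 library its count ranged from 0 to 88, the higher genes at an unadjusted p under 0.05 from 209 to 552, and the lower genes from 436 to 912. The lane difference within 1.0% Ca, 903 genes at that p, ranged from 482 to 1470 without 1 of its birds. The likelihood ratio test called 18 genes (12 shared with the 19) with an offset per chromosome class, which was chosen after seeing the data. The cause of these changes was not tested.

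With the replicate number as a block the likelihood ratio test called 10 genes (1 shared with the 19) and 464 genes were lower at an unadjusted p under 0.05. The labels do not say whether the numbers pair birds. Same-numbered birds at 1.2% and 0.8% Ca had deviations correlated at -0.411 and -0.0416, too few values to decide it.

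With lane as a covariate the log2 fold changes of WNK4 (0.73), OTUD1 (0.14), NUP98 (0.22), Ex-FABP (0.33), TMEM8A (0.52) and GAPDH (-0.088) changed sign. With the replicate block those of Nox2 (-0.055), CAPN3 (-0.048) and PRCP (-0.090) did. With the offset per chromosome class those of XDH (-0.0031), PRCP (-0.046), FCGBP (0.0061) and GAPDH (-0.0079) did. PRCP was also below 0 with upper-quartile factors (-0.0044), the 6 libraries alone (-0.0060), DESeq2 (-0.00017) and limma-voom (-0.038). Without 1 library the values ran from -1.19 to 0.0061 for WNK4, -0.048 to 0.51 for MGST1, -0.33 to 0.73 for Nox2, -0.20 to 0.64 for GSTA3, -0.49 to 1.21 for XDH, -0.080 to 0.73 for CCL20, -3.39 to 0.78 for LRRC8A, -1.03 to 3.40 for DPP6, -0.37 to 0.74 for CAPN3, -0.27 to 0.26 for PRCP, -1.15 to 0.59 for FCGBP, -1.11 to 0.37 for Ex-FABP, -2.02 to 0.19 for TMEM8A and -0.041 to 0.13 for GAPDH.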
